A study of Glycine max with 2 samples.

Results

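Cytochrome P450 genes of soybean (Glycine max, cultivar Williams 82) were measured in seedlings under salt and under a mock treatment on 2 Affymetrix Soybean Genome Arrays. The P450 genes were those whose symbol in the platform's annotation gives a family number, a subfamily letter and a gene number, such as CYP82A2, on a probe set assigned to a single gene. CYP93A1 was left out by that rule, and 12 genes with symbols of the form CYP53 were left out because they are cyclophilins. This gave 21 genes with 38 probe sets, of 6031 soybean genes named on the array. They belong to 13 families and 18 subfamilies, and all 21 were found in the RefSeq gene table by their gene identifier. All seedlings were 14 days old, and the labels name no mutation or transgene in either group. One pool, the salinity group, combined RNA of seedlings given 150 mM NaCl, and the other, the mock group, RNA of seedlings given water only. Each pool mixed RNA from times up to 24 h (the labels differ on whether 0 h is among them) and went onto 1 array, so no time course can be read and no replicate, spread between plants or test exists. The labels do not name the organs taken.

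Plant P450s are haem enzymes, and most insert oxygen into small molecules, drawing electrons from a reductase in the endoplasmic reticulum. They form one of the largest gene families of plants, and serve the synthesis of lignin, flavonoids, phytoalexins, saponins, carotenoids, cutin and hormones and the breakdown of herbicides. Most members of the CYP71 clan, also called A-type P450s, act in specialised metabolism, while the other clans hold many enzymes of hormone, sterol, fatty acid and carotenoid metabolism. In legumes, P450s make the isoflavone skeleton and convert it to pterocarpan phytoalexins, of which the glyceollins of soybean are the best known.

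Values are log2 signals, and a ratio is log2(salinity / mock) of the brightest probe set of a gene. A background bound was set on each array from probe sets of 2 other organisms, at 4.88 (salinity) and 4.94 (mock). All 21 genes had a brightest set above the bound on both arrays, and on the mock array 17 of them lay over 4 log2 units above it. CYP94D24 and CYP82C1 were closest to it, at 0.95 and 1.09 log2 units above the salinity bound. Of the 38 probe sets, 37 were above the bound on both arrays, and 1 set of CYP93E1 was below it on both.

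As a group the P450 genes were spread to both sides. Their ratios ran from -1.53 to 1.65, with 9 genes above 0 and 12 below. The median was -0.0038, against -0.0033 over the 5895 soybean genes measured. CYP82A2 and CYP82A3 were at least 2-fold higher on the salinity array, which is 9.52% of the members beside 5.02% of all measured genes. CYP93A3 and CYP82C1 were at least 2-fold lower, again 9.52%, beside 5.68% of all measured genes. With 21 genes each call moves these shares by much, so counts of 2 read little differently from the background.

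**Figure D1:**
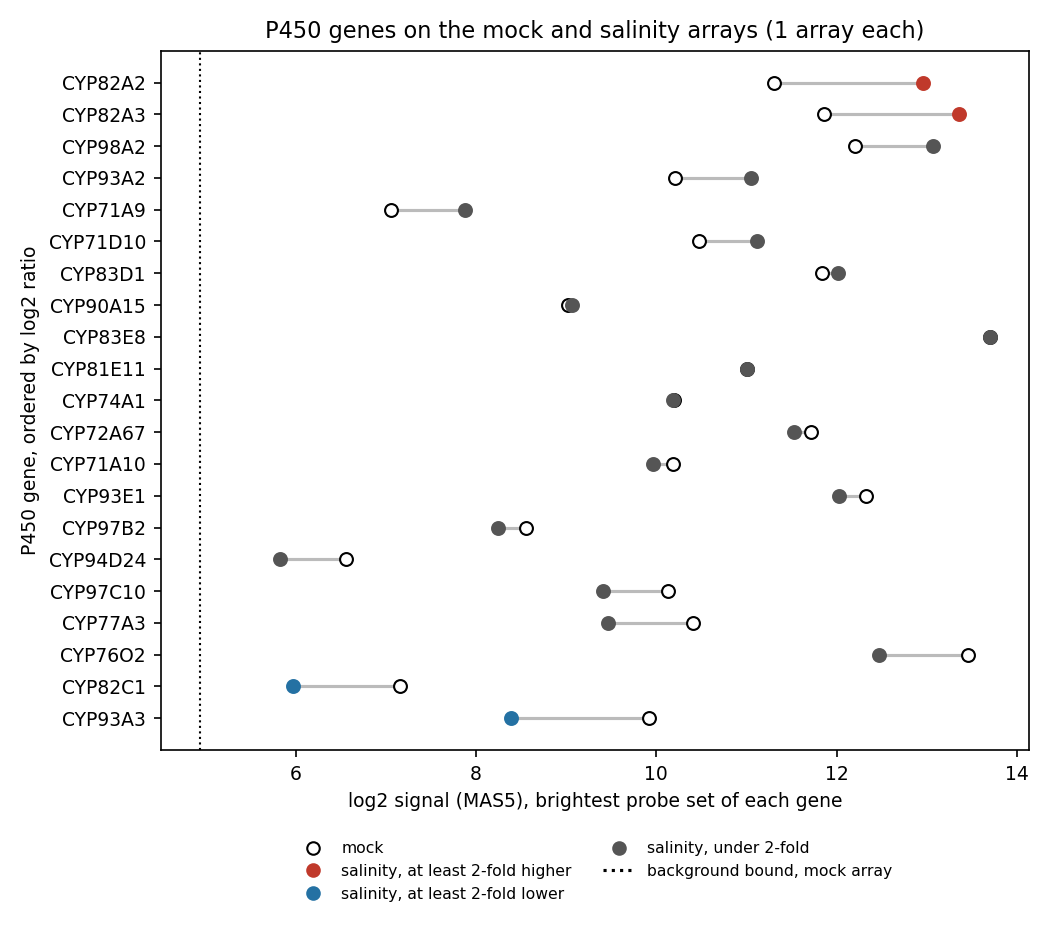
Log2 signal (MAS5) of the brightest probe set of each of the 21 P450 genes on the mock array (open circles) and the salinity array (filled circles, coloured by the 2-fold rule), 1 array each, with genes ordered by log2 ratio. CYP82A2 and CYP82A3 lie to the right of their mock values, CYP93A3 and CYP82C1 to the left, and several genes in the middle differ too little to see.

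At a smaller limit the shares lay further above the background. At least 1.5-fold higher were 6 of 21 (28.6%, beside 11.4% of all measured genes), namely CYP82A2, CYP82A3, CYP98A2, CYP93A2, CYP71A9 and CYP71D10. At least 1.5-fold lower were another 6 (28.6%, beside 14.7%), namely CYP93A3, CYP82C1, CYP76O2, CYP77A3, CYP97C10 and CYP94D24. At 3-fold or more, CYP82A2 alone was higher (2.27% of all measured genes were) and no member was lower (1.54% were). The 9 genes under 1.5-fold lay between a ratio of -0.31 and 0.17, and 4 of them were within 0.1 of 0. The SD of the ratios was 0.851 over the P450 genes and 0.691 over all measured genes. These are descriptions of 2 arrays, and the members are related genes rather than independent draws.

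**Figure D2:**
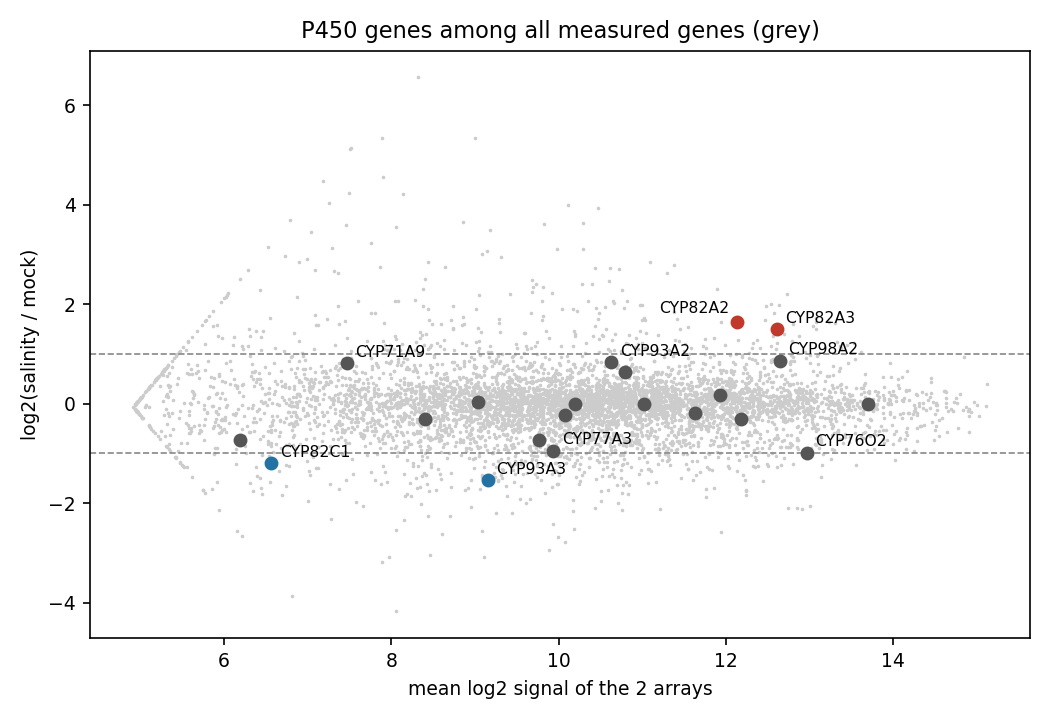
Log2(salinity / mock) against the mean log2 signal of both arrays for 5895 measured soybean genes (grey) and the 21 P450 genes (large points, red at least 2-fold higher, blue at least 2-fold lower), with dashed lines at 2-fold. CYP82A2 and CYP82A3 are bright genes above the upper line, and CYP82C1 sits near the dim end.

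The highest ratios among the members belonged to the CYP82A subfamily. CYP82A2 gave a log2 signal of 11.31 under mock treatment and 12.96 under salt, a 3.14-fold difference, and 120 of the 5895 genes had a higher ratio. Its other 2 probe sets read 12.80 against 11.03 (3.41-fold) and 12.81 against 10.93 (3.66-fold). The brightest set and the 3.66-fold set carry a suffix that marks probes shared with other transcripts, and the 3.41-fold set does not. All 3 sets of CYP82A2 thus pointed the same way, within 0.22 of each other in log2 ratio. As a yardstick, the spread between probe sets of the same gene, over 1618 genes with at least 2 sets above the bound on both arrays, was 0.295 (SD of the difference divided by the square root of 2). It reflects the probes alone, since plants, pools and arrays were not repeated.

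CYP82A3, of the same subfamily, read 13.36 under salt and 11.86 under mock treatment by its brightest set, 2.82-fold higher. That set also carries a suffix that marks probes shared with other transcripts. An unmarked set read 11.71 against 9.04, which is 6.34-fold higher, and another marked set 9.83 against 8.19, which is 3.12-fold higher. The last set, also unmarked, read 5.19 and 5.24, close to the bound on both arrays, and gave a log2 ratio of -0.05. CYP82A3 was therefore higher by each of its 3 bright sets, but its fold is uncertain, with a range of 2.71 in log2 ratio over all 4 sets. CYP82A genes are close relatives, and how far each marked set reads a single one of them was not tested.

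CYP82C1, of another subfamily of the same family, went the opposite way. It read 5.97 under salt and 7.16 under mock treatment, 2.28-fold lower, by its only probe set. The salinity value was near the bound.

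**Figure D3:**
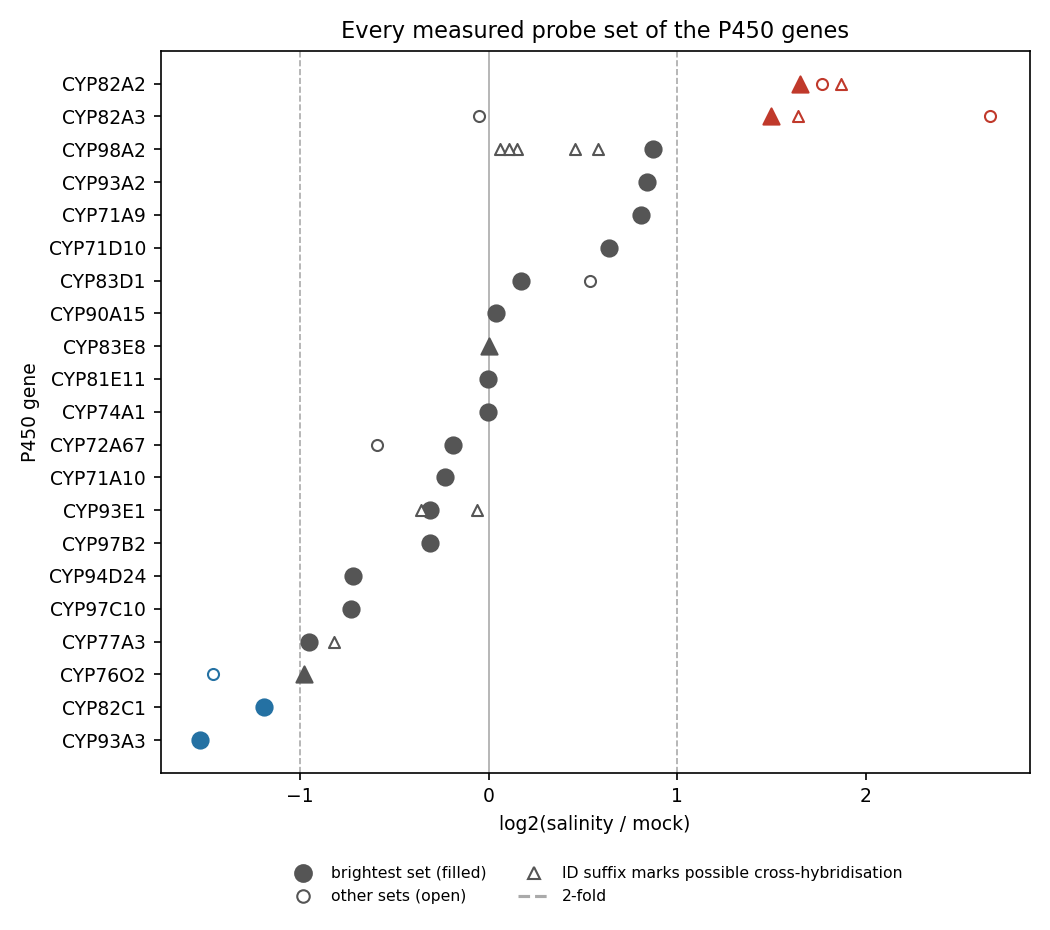
Log2(salinity / mock) of every measured probe set of the 21 P450 genes, with the brightest set of each gene filled, the others open, and triangles for sets whose ID suffix marks probes shared with other transcripts. Dashed lines mark 2-fold. Sets of CYP82A2 lie close together between 1.65 and 1.87, while those of CYP82A3 run from -0.05 to 2.66 and those of CYP98A2 from 0.06 to 0.87.

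The CYP93 family was split as well. CYP93A2, listed in the RefSeq gene table with the synonym P6aH, for a pterocarpan hydroxylase, read 11.05 under salt and 10.21 under mock treatment (1.79-fold higher). CYP93A3 read 8.39 under salt and 9.92 under mock treatment. It was 2.89-fold lower, the lowest ratio of all members, and 105 of the 5895 genes had a lower one. The ratios of these 2 genes of one subfamily differed by 2.37. Each has a single probe set, without a mark for shared probes. CYP93E1, the beta-amyrin hydroxylase gene of soyasaponin synthesis, read 12.03 and 12.33 (log2 ratio -0.31), and its other 2 measured sets gave -0.36 and -0.06.

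CYP81E11, of a subfamily that hydroxylates isoflavones in other legumes such as licorice, read 11.01 on both arrays. In the CYP71 family, CYP71A9 read 7.88 against 7.06 (1.76-fold higher) and CYP71D10 11.12 against 10.47 (1.56-fold higher). CYP71A10, whose enzyme breaks down phenylurea herbicides when expressed in tobacco, read 9.96 and 10.19, a log2 ratio of -0.23. The 2 CYP71A genes thus differed by 1.04 in log2 ratio.

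CYP98A2 belongs to the subfamily that hydroxylates the p-coumaroyl esters on the way to lignin. Its brightest set read 13.07 under salt and 12.20 under mock treatment, 1.83-fold higher. Its other 5 sets, all marked for shared probes, gave log2 ratios of 0.06 to 0.58, and the mean over the 6 sets was 0.37. Marked sets ending in _a_at gave 0.06, 0.11 and 0.58, and those ending in _x_at 0.15 and 0.46. The mark takes these suffixes together, so it does not show whether the shared transcripts are of CYP98A2 itself or of other genes. All 6 sets were on the high side, with the unmarked one highest.

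The members just short of 2-fold lower were CYP76O2 and CYP77A3. CYP76O2 read 12.47 under salt and 13.46 under mock treatment by its brightest set, 1.98-fold lower. Its second set, without a mark for shared probes, read 11.49 and 12.96, 2.76-fold lower. CYP76O2 was thus past 2-fold by its unmarked set and by the mean of both sets (log2 ratio -1.22), and just outside by the rule used here. CYP77A3 read 9.46 and 10.41 (1.93-fold lower), with its second set at 8.07 and 8.89 (1.77-fold lower). In Arabidopsis, CYP77A enzymes oxidise fatty acids and one of them makes cutin monomers. CYP94D24, of a family of fatty acid hydroxylases, read 5.83 and 6.56 (1.65-fold lower), close to the bound.

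Both members of the CYP97 family, which hydroxylates carotenoids in plastids, lay below 0. CYP97C10 read 9.41 under salt and 10.13 under mock treatment (1.65-fold lower), and CYP97B2 read 8.25 and 8.56 (log2 ratio -0.31). The Arabidopsis gene of the CYP97C subfamily makes lutein. By their brightest sets, genes of green tissue fixed by symbol were also on the low side. All 4 (CAB3, PSAD, RCA11 and RCA14) were above the bound on both arrays, with ratios of -0.62 to -0.22 and a summed unlogged signal of 66034 under salt and 84130 under mock treatment. Not all their sets were low. Those of PSAD ran from -1.03 to 0.17 and those of CAB3 from -0.42 to 0.26, while those of RCA14 ran from -0.62 to -0.52. RCA11 has 1 measured set. Of all measured genes, 49.8% were above 0. None of the 4 green tissue genes was listed at 0. The part of green tissue in the CYP97 values was not tested, and fewer cells of a type cannot be told apart from less RNA per cell in pooled RNA.

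The remaining members differed little. CYP90A15, of the brassinosteroid synthesis subfamily CYP90A, read 9.06 and 9.02. CYP74A1, named as an allene oxide synthase of jasmonate synthesis, read 10.19 and 10.20. CYP72A67, a name given in Medicago to a saponin hydroxylase, read 11.53 and 11.72, and its second set gave a log2 ratio of -0.59. CYP83E8 read 13.70 on both arrays, by a marked set only. CYP83D1 read 12.01 and 11.84, with its second set at a log2 ratio of 0.54.

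Read by clan, 15 of the 21 members were A-type. Of these, 8 were above 0 and 7 below, from -1.53 to 1.65, and 10 differed by more than 0.5 in log2 ratio. Over all 21 members 12 did (57.1%), beside 31.2% of all measured genes. The 4 members that differed at least 2-fold were among the A-type genes. The 6 genes of other clans (CYP72A67, CYP74A1, CYP90A15, CYP94D24, CYP97B2 and CYP97C10) ran from -0.73 to 0.04 with 5 below 0, and 2 of the 6 differed by more than 0.5. The difference between the clans was not tested.

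Among the 8 members with at least 2 measured probe sets, all sets had the same sign for 7, and CYP82A3 was the exception through its dim set. The other 13 members rest on 1 set. In the gene order of the RefSeq annotation no 2 members adjoin each other. The closest pair among P450 genes named here, CYP82C1 and CYP71D8, has 20 protein-coding genes between them, and their ratios had opposite signs.

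P450 genes that the array annotates under other symbols were read in the same way, from names and RefSeq synonyms. Of 12 such genes, all above the bound on both arrays, 5 were higher and 1 was lower by at least 2-fold, beside 5.02% and 5.68% of all measured genes, with a median ratio of 0.44. CYP82A4, also of the CYP82A subfamily, read 12.07 under salt and 9.37 under mock treatment (6.53-fold higher), by a marked set only. CYP71D8 read 11.68 against 9.65 (4.09-fold higher), and its 3 sets gave log2 ratios of 1.73 to 2.03. All 3 CYP82A genes named here were thus at least 2-fold higher by their brightest sets, each of which is marked for shared probes. How far these sets read separate genes was not tested. Also higher were F6H1 (CYP71D9, a flavonoid hydroxylase, 3.20-fold), CYP81E10 (3.01-fold, at 6.71 against 5.12 and so near the bound on the mock array) and IFS2, an isoflavone synthase (2.28-fold). CYP78A3, of a subfamily that promotes organ growth in Arabidopsis, read 9.02 and 10.17 (2.23-fold lower).

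Counted together, members and P450 genes under other symbols came to 33. Of these, 7 were higher and 3 lower by at least 2-fold, beside 5.02% and 5.68% of all measured genes, and the median was 0.04. The other-symbol genes of core phenylpropanoid metabolism, C4H (cinnamate hydroxylase, CYP73A11, log2 ratio 0.41) and CYP84A16 (of the ferulate hydroxylase subfamily, 0.43), were higher by less than 1.5-fold. IFS1 read 13.30 and 13.24. IFS1 and IFS2 each have 1 set, marked for shared probes, and each carries the other's name as a synonym, so their values cannot be assigned with certainty to one or the other.

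The oxylipin P450s showed both signs. AOS1 (log2 ratio -0.54, with its second set at -1.11) and AOS2 (-0.79) were lower, whereas CYP74A2 (0.45, by a marked set only) was higher and CYP74A1 near 0. Over the 12 genes of jasmonate and oxylipin synthesis above the bound on both arrays the median was -0.21, with 6 above 0. Among these 12, the lipoxygenase gene LOX10 was at least 2-fold higher (2.49-fold) and none was 2-fold lower, beside 5.02% and 5.68% of all measured genes. LOX3 passed the bound under salt only and was at least 1.59-fold higher.

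Non-P450 enzymes of the isoflavonoid branch were above 0 in all 14 genes above the bound on both arrays, beside 49.8% of all measured genes, with a median of 0.81. At least 2-fold higher were 5 of them (5.02% of all measured genes were), led by the chalcone reductase gene CHR5 (3.88-fold) and the isoflavone reductase gene IFR (3.31-fold). The brightest sets of CHR5, IFR, PTS1 and G4DT are marked for shared probes, and that of PT01 (2.17-fold) is not. CHR5 has 1 measured set, and the other set of IFR gave a log2 ratio of 1.11. CHR3 passed the bound under salt only, so its ratio could not fall below 0 and it is not counted here. Of the P450 genes of the CYP82A, CYP93A and CYP81E subfamilies among the members, 3 of 5 were above 0 (CYP82A2, CYP82A3 and CYP93A2), while CYP81E11 was near 0 and CYP93A3 lower. The backbone of phenylpropanoid and flavonoid synthesis was mixed, where 2 of 18 genes were higher and 3 lower by at least 2-fold, beside 5.02% and 5.68% of all measured genes. CHI3A1, 1 of the 3, passed the bound under mock treatment only and could not read higher. The coumarate ligase gene 4CL3 (2.25-fold) and the chalcone isomerase gene CHI1A (2.06-fold) were the high ones, and ANS2 (3.90-fold) and DFR2 (3.28-fold), of the anthocyanin end, the lowest. Under salt DFR2 read 4.99 and ANS2 6.02, against 6.71 and 7.98 under mock treatment, so both salinity values were near the bound. DFR1, the other dihydroflavonol reductase gene, had a log2 ratio of 0.39, at 5.64 and 5.25 and so near the bound on both arrays. No reductase or cytochrome b5 partner of the P450s was found by symbol or synonym.

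**Figure D4:**
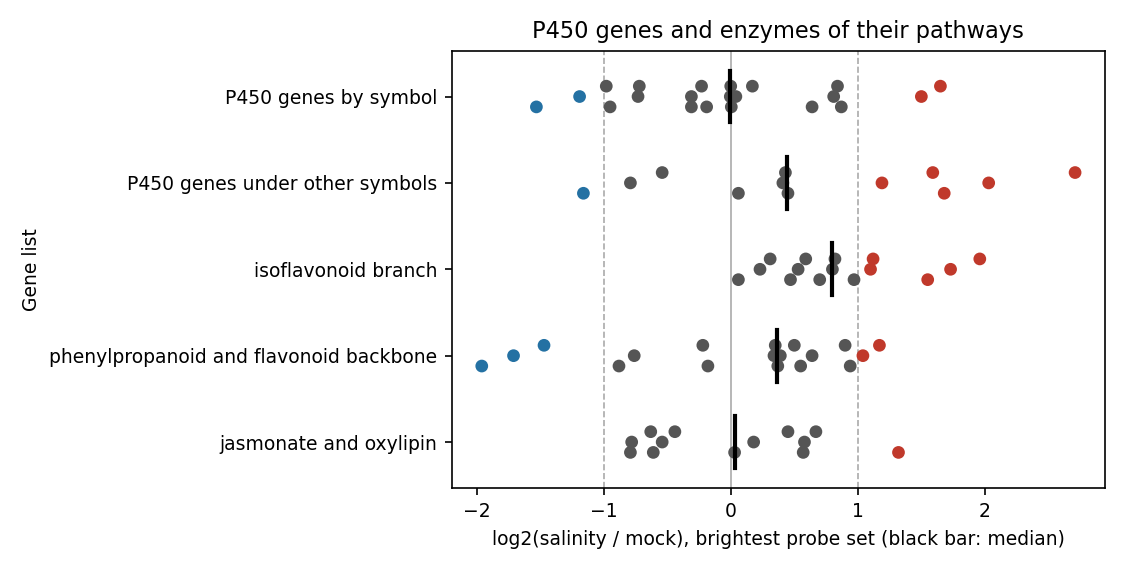
Log2(salinity / mock) of the brightest probe set of each gene in the 21 P450 genes and in 4 accompanying lists, with a black bar at each list's median and dashed lines at 2-fold. The P450 genes are spread around 0, while the isoflavonoid branch genes lie above 0, 1 of them (CHR3) a lower limit. The medians drawn include genes above the bound on 1 array, and vertical scatter within a list carries no meaning.

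The material and RNA makeup were read from the same arrays. Of 17 nodule genes, 7 were above the bound on at least 1 array, with a summed signal of 28708 (salinity) and 27936 (mock), and of 9 seed storage genes 2 were, with 108 and 68. The nodule genes were taken by symbol or synonym, and whether each is particular to nodules was not tested. The brightest of the 7 was SS, at log2 signals of 14.16 (salinity) and 14.32 (mock), which weighs most in the sum. Ratios of the 7 ran from -1.76 (ENOD55-2) to 1.23 (N-36A), with 4 above 0 and 3 below. Probe sets for soybean ribosomal RNA in reverse-complement orientation were brighter on the salinity array for 21 of 24, with a median difference of 0.52 in log2 signal, and so were 21 of the 24 sets in the other orientation, with a median difference of 1.39. The part of these differences in the P450 ratios was not tested.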

How the data were processed

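The table holds log2 signals that the authors deposited. MAS5, which summarises each probe set and scales each array, is named in the submitters' processing notes (version and any later step not given in the sources used here). Trimming 2% at each end, mean unlogged signals were 498.8 (salinity) and 498.5 (mock), so both arrays share one scale. The bound was the 95th percentile of 23350 probe sets for Phytophthora sojae and soybean cyst nematode. Signals below it were raised to it. No further normalization was applied. Of 37593 soybean probe sets, 8677 name 1 gene. Names came from the platform's annotation and the RefSeq table of Glycine_max_v4.0, used for names and gene order only. Single arrays allow no test, so a fixed 2-fold rule was used. The number of arrays limits the precision. All members are named, with probe set values for those at least 2-fold different by any set. The members, lists and role groups were chosen with earlier results of these data known, and nothing here is independent support for them. Python 3.11.15, pandas 2.3.3 and statsmodels 0.14.6 (loess) were used. Alternatives are given in the closing section.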

Additional observations from a re-analysis of the deposited data

How the results depend on the processing

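No paired analysis was possible because each group has 1 array. The median ratio of the P450 genes stayed between -0.10 and -0.0010 under 9 settings, namely loess, quantile normalization and median centring, the bound at the 99th or the 90th percentile, no floor but log2(signal + 16), the mean over probe sets, the omission of sets marked for shared probes, and a filter to genes above both bounds. CYP82A2 and CYP82A3 were the genes at least 2-fold higher, and CYP93A3 and CYP82C1 were at least 2-fold lower, under each of them, with CYP76O2 joining the lower genes without marked sets and by the mean. Counts depend on the fold asked for: 6 higher and 6 lower at 1.5-fold, and 1 higher and 0 lower at 3-fold. Of 167 single-gene values, 164 moved by less than 0.295, the spread between probe sets, and none changed sign among genes at least 2-fold different. The exceptions were CYP82A3 (2.66) and CYP76O2 (-1.46) without marked sets and CYP98A2 (0.37) by the mean, where another probe set or all of them stand for the gene. Signal near the bound limits CYP82C1, which reached -1.02 under one setting, and CYP94D24.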
